A study of Danio rerio with 18 samples.

Results

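The genes described here are the complement and coagulation genes of the zebrafish liver, a set of 49 gene names that covers the clotting cascade, its inhibitors and fibrinolysis, and the complement cascade with its regulators. Members were found by name. A probe belonged to a member if its transcript accession carried that symbol or synonym in the RefSeq gene table or the study's gene lists. Those lists hold transcripts that the study called different between sexes or strains in these same fish. The c4 probes were named only through them, so the calls for c4 below are not independent of that selection. The study also names F7 among its female strain differences, while the RefSeq table calls this gene f7l. The F7 match may thus come from these lists, and its calls below may not be independent either. Of the 49 names, 38 had a probe, out of 28239 genes or accessions on the array, and each was represented by its brightest probe. No probe was matched for f5, f8, f13b, masp1, c4b, cfi, c5, c7a, c7b, c8b and c9, so these 11 are not analysed here. All 38 members with a probe were well above the array background on at least 3 of 18 arrays, and 32 were so on all 18. The others were f3a (3 arrays), f3b (6), mbl2 (14), vwf (15), cfh (16) and cfp (17). Some names stand for near-identical gene copies, such as c3a.1, c3a.2 and c3a.3, whose probes may share signal.

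In vertebrates most of these proteins are made by hepatocytes and secreted into plasma as inactive precursors. Clotting proceeds through serine proteases that activate each other until thrombin cuts fibrinogen into fibrin, while serpins such as antithrombin and the protein C system hold thrombin in check and plasmin dissolves the clot. Complement starts from C1, from mannose-binding lectin or spontaneously through factor B, converges on C3, and ends in a membrane pore built from the terminal components. Several of these proteins are known as acute-phase proteins in the liver.

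RNA came from whole dissected livers of untreated adult zebrafish, labelled 12 to 18 months old, in 6 groups of 3 individual fish: AB males, AB females, TU (Tuebingen) males, TU females, WIK males and WIK females. The 3 are laboratory strains without engineered alleles, obtained from a stock centre as embryos and kept in 1 facility for 2 generations. Fish were sexed by eye from eggs or testes at dissection. Per the study's methods AB livers were collected in the morning and TU and WIK livers in the afternoon, so AB against either other strain and the hour of collection cannot be told apart. Of 25 clock genes, 11 were called among strains over the mean of sexes, where 7.56% of all genes were called. Each fish was hybridised to its own one-colour array, and values are normalised log2 signals, so a difference of 1 is 2-fold. The RNA is that of a whole tissue, in which fewer cells of a type and less RNA per cell cannot be told apart.

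Between 44.9% and 67.3% of an array's spots were well above background, and no spot was saturated. TU female 3 stood apart from its label: its vtg1 signal, the estrogen-induced yolk precursor vitellogenin, was 11.77, against 18.02 and 18.20 in the other TU females, and its hsd17b3 signal was 11.14, against 5.98 and 6.11. The fish is kept as labelled, and main results that rest on it are also given without it. The tissue carried its defining transcripts: all 15 measured hepatocyte markers, among them the fatty acid binding protein fabp10a, were well above background on at least 3 arrays. Their summed signal (log2) was 20.74 to 21.47 in AB males against 20.16 to 20.24 in AB females, 21.18 to 21.54 in TU males against 20.15 to 21.44 in TU females, and 21.11 to 21.60 in WIK males against 20.31 to 20.76 in WIK females, with TU female 3 alone among females at 21.44. Digestive enzyme transcripts of the exocrine pancreas were also present, at a summed log2 signal of 13.99 to 14.60 in AB males and 15.54 to 17.30 in AB females, against 16.74 to 21.00 over the TU groups and 16.43 to 21.38 over the WIK groups. All 16 measured pancreas genes were called among strains over the mean of sexes, where 7.56% of all genes were called. Within AB amy2a was called, lower in males. The part of this tissue in the strain differences below was not tested.

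Most complement and coagulation transcripts had higher signals in male livers, and the fibrinogen chains, antithrombin, C1 inhibitor and the C8 chains were among those called. Over the mean of the 3 strains 36 of 38 members had the higher signal in males, with a median difference of 0.80 on the log2 scale, against 56.1% of the 19689 genes above background and a median of 0.03. The exceptions were vwf and cfh. The 15 hepatocyte markers moved the same way, with 15 of 15 at the higher signal in males, a median of 0.85 and 3 called (apoa1a, ahsg2 and apobb.1), as did 7 of 7 erythrocyte genes (median 0.83, 0 called). The summed signal of 5 biliary genes was higher in all males than in all females of each strain, at 14.93 to 15.72 in AB males against 14.47 to 14.71 in AB females, 15.68 to 16.49 in TU males against 14.82 to 15.19 in TU females, and 14.85 to 15.17 in WIK males against 14.36 to 14.64 in WIK females. In AB, stellate cell genes (11.36 to 11.83 in males against 10.06 to 10.30 in females) and thrombocyte genes (9.83 to 10.02 against 9.21 in each female) were separate too. So were erythrocyte genes in AB (15.76 to 16.45 against 13.85 to 14.88) and WIK (15.30 to 16.22 against 14.60 to 15.07). Endothelium genes were separate in AB (9.60 to 10.06 against 9.33 to 9.55) and WIK (9.75 to 9.83 against 9.52 to 9.73). Erythrocyte and endothelium sums overlapped between the sexes in TU. The summed signal of 8 sex-check genes, most of them vitellogenins, was 20.28 to 20.74 in AB females against 12.12 to 13.41 in AB males. In WIK it was 20.42 to 20.69 in females against 11.88 to 13.85 in males. In TU it was 14.94 to 20.59 in females, with TU female 3 the lowest, against 10.80 to 13.52 in males. The part of these cell types and of the vitellogenin signal in the result was not tested. A member was called when its limma test, adjusted by the Benjamini-Hochberg method over all probes, gave an adjusted p of at most 0.05 and the difference was at least 2-fold. In this comparison 13 members were called, all higher in males, where 2.05% of the 28239 genes were called in either direction and 1.05% with males higher. Among the genes well above background on at least 3 arrays, as all 38 members were, these shares were 2.94% and 1.5%. They were fga, fgb, fgg, pros1, serpinc1, F7, serping1, c4, c3a.1, c3a.3, cfb, c8a and c8g. Without TU female 3 the count was 13 again (where 3.21% of all genes were called), and leaving out WIK male 2 lowered it to 8 (1.56%). With the same-slide pair of fish as a block, 10 of the 13 calls stood, and c4, cfb and c3a.3 were lost (adjusted p = 0.0678, 0.0761 and 0.0523). The share of all genes called with this block was not counted.

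Within single strains the picture was uneven. In AB, 35 of 38 members were higher in males with a median of 1.08, and 6 were called (F7, fga, serpinc1, serping1, c4 and c8a), where 2.07% of all genes were called and 0.988% with males higher, or 2.97% and 1.42% of those above background. In WIK, 36 of 38 members were higher in males with a median of 0.80, and 6 were called (fga, fgb, fgg, pros1, plg and c8g), where 1.25% of all genes were called and 0.567% with males higher, or 1.8% and 0.813% of those above background. In TU, 32 of 38 were higher in males with a median of 0.35 and no member was called by limma, as was no gene on the array, so that 0% were called. At an unadjusted p under 0.05, TU had 1 of 38 members, AB 20 and WIK 20. Of the 28239 genes 1143, 4904 and 4166 were so in the same order. Among the 19689 above background these were 1119, 4843 and 4093. All males lay above all females for 20 members in AB (12.9% of all genes), for 2 in TU (3.73%) and for 18 in WIK (11.7%), and no member had all males below all females in any strain, against 11.1% of all genes in AB, 4.56% in TU and 8.6% in WIK.

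**Figure D1:**
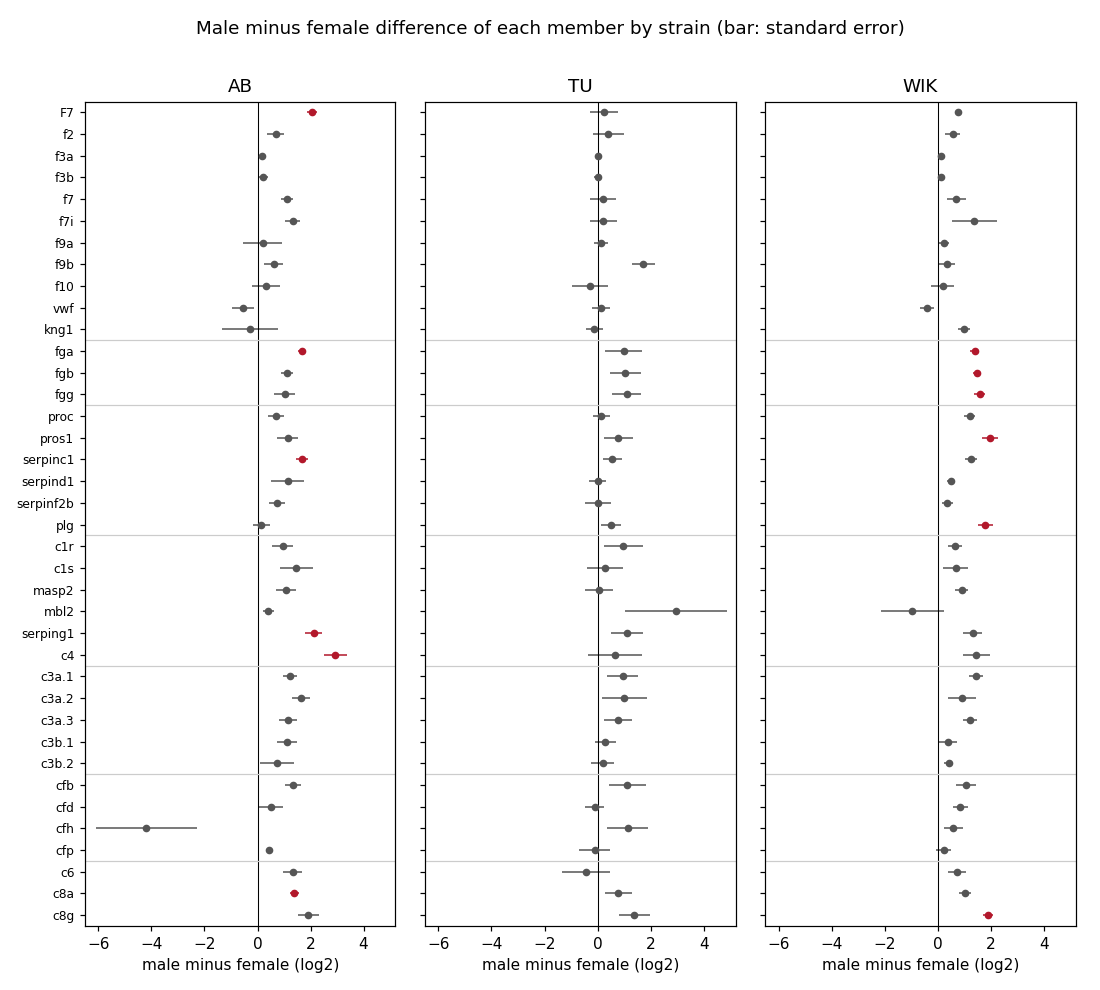
Male minus female difference (log2, with its standard error) of the 38 members in AB, TU and WIK, 3 fish per group, with members grouped by role between grey lines and called members in red. Most points lie right of 0 in each strain, with cfh in AB far to the left at -4.19.

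The calls within single strains depended on single fish, as did the share of all genes called. Leaving out 1 fish changed the AB count of 6 to 4 without male 1, 2 without male 2, 10 without male 3, 1 without female 1, 0 without female 2 and 1 without female 3. The share of all genes called went from 2.07% to 0.807%, 1.05%, 2.65%, 0.822%, 0.425% and 1.06% in the same order. The WIK count of 6 became 0 without male 1, 1 without male 2, 10 without male 3, 1 without female 1, 0 without female 2 and 1 without female 3. There the share went from 1.25% to 0.216%, 0.152%, 1.99%, 0.917%, 0.666% and 1.03%. In WIK the same-numbered male and female shared a slide and deviated together, and once the shared number entered the fit as a block, 0 of the 6 WIK calls stood, at adjusted p between 0.0527 for fgb and 0.0807 for pros1. In AB the same block left 2 calls, F7 and c4. The share of all genes called with the block was not counted. The block counts thus cannot be set against the whole array.

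The fibrinogen chains, which form the clot, gave calls for 3 of 3 measured chains over the mean of strains, all higher in males. The alpha chain gene fga had 16.73, 17.15 and 17.33 in AB males, against 15.35, 15.44 and 15.43 in AB females. In TU its signals were 15.81, 16.91 and 16.44 in TU males, against 14.62, 14.70 and 16.88 in TU females, and in WIK 16.26, 16.74 and 16.11 in WIK males, against 14.89, 15.05 and 14.99 in WIK females. Males and females did not overlap in AB or WIK, whereas in TU female 3 lay among the males. The difference for fga was 1.67 ± 0.16 in AB (SE, adjusted p = 0.0142), 0.99 ± 0.70 in TU (adjusted p = 0.935) and 1.39 ± 0.17 in WIK (adjusted p = 0.0249), and 1.35 ± 0.27 over the strains (adjusted p = 0.00866).

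The beta chain gene fgb measured 17.44, 18.13 and 17.31 in AB males, against 16.44, 16.60 and 16.48 in AB females. It measured 17.43, 18.01 and 17.64 in TU males, against 16.06, 15.91 and 17.96 in TU females. In WIK the fgb signals were 17.58, 18.15 and 17.66 in WIK males, against 16.30, 16.36 and 16.27 in WIK females. In AB and WIK all males exceeded all females, and TU female 3 lay within the TU male range. The gamma chain gene fgg had 17.17, 17.10 and 15.77 in AB males, against 15.55, 15.85 and 15.54 in AB females. AB male 3 lay below AB female 2, so that the AB groups overlapped for fgg. Its signals were 16.89, 17.45 and 16.91 in TU males, against 15.34, 15.40 and 17.23 in TU females, and 17.14, 17.74 and 17.14 in WIK males, against 15.90, 15.86 and 15.49 in WIK females. Over the mean of strains fgb differed by 1.22 ± 0.24 (adjusted p = 0.00778) and fgg by 1.24 ± 0.26 (adjusted p = 0.0124). Without TU female 3 the TU differences were 1.73 ± 0.34 for fga, 1.71 ± 0.20 for fgb and 1.71 ± 0.20 for fgg, at adjusted p of 0.129, 0.0541 and 0.0568, so that none was called in TU.

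The size of the fibrinogen difference depended on the scaling of the arrays. All 3 calls stood without any 1 of the 18 fish. From the scanner's processed signal, scaled to each array's 75th percentile, the mean sex difference was 0.63 ± 0.25 for fga, 0.03 ± 0.25 for fgb and 0.19 ± 0.27 for fgg, at adjusted p of 0.0873, 0.952 and 0.634, none of them called. With median scaling fgb (0.93 ± 0.30, adjusted p = 0.0656) and fgg (1.05 ± 0.38, adjusted p = 0.0903) were not called while the hepatocyte markers stayed at 14 of 15 higher in males (median 0.69), and averaging probes ended the fgg call (adjusted p = 0.0568). The processed-signal scaling left 34 of 38 members higher in males, with a median of 0.62. It kept 3 of the 13 calls, pros1, c4 and c8g. Those 3 of 38 members were close to the share over all genes, of which 7.54% were called in either direction. This scaling turned the direction of f2 and kng1. The hepatocyte markers moved from 15 of 15 higher in males (median 0.85) to 6 of 15 (median -0.18). Between the quantile and the processed-signal scaling both groups shifted down, and the part of that shift in the fibrinogen result was not tested.

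**Figure D2:**
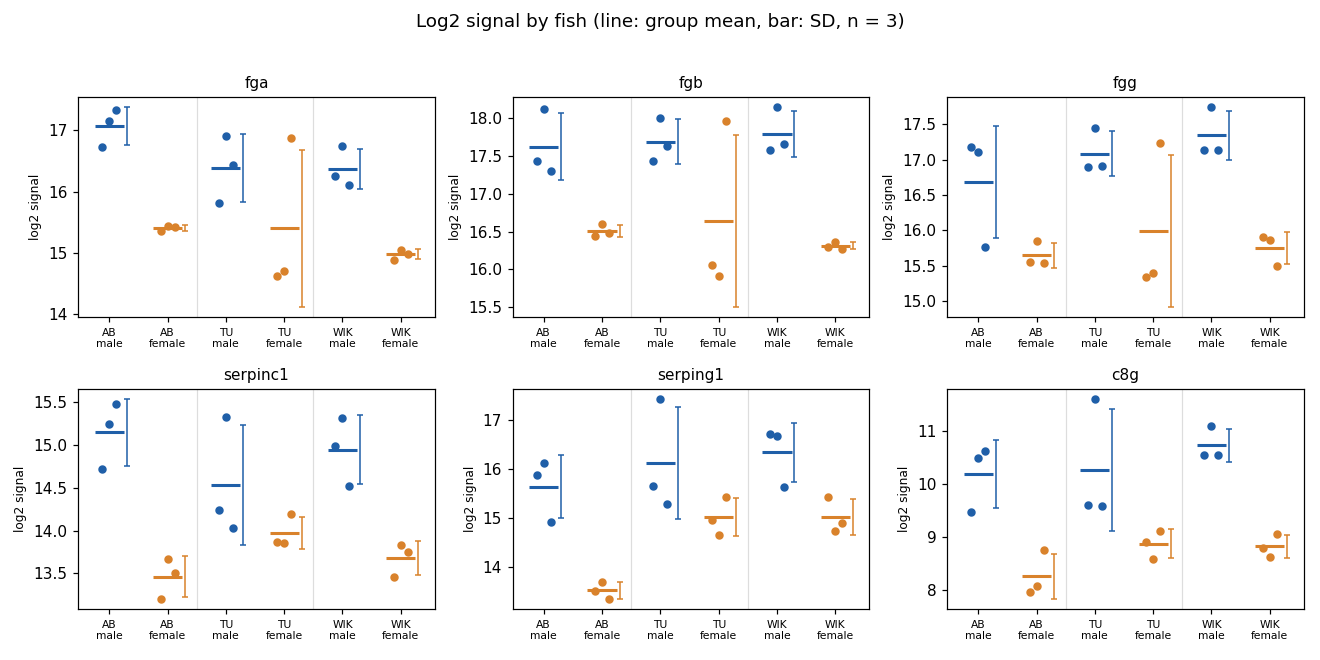
Log2 signal of 6 members called between the sexes over the mean of strains, in each of the 18 fish, with males left of females within a strain, the group mean as a line and the SD (n = 3) as a bar. In AB and WIK the male and female points of fga, fgb, serpinc1, serping1 and c8g do not touch, and TU female 3 reaches the male level of the 3 fibrinogen chains.

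Among regulators of clotting and fibrinolysis all 6 measured members were higher in males over the mean of strains, and 2 were called. Antithrombin (serpinc1), the serpin that inactivates thrombin and factor Xa, had 14.72, 15.24 and 15.48 in AB males, against 13.20, 13.67 and 13.51 in AB females. It had 14.24, 15.33 and 14.03 in TU males, against 13.87, 13.85 and 14.19 in TU females. In WIK it had 14.99, 15.32 and 14.52 in WIK males, against 13.46, 13.83 and 13.75 in WIK females. Males and females were separate in AB and in WIK, and in TU 1 female lay inside the male range. The mean difference was 1.17 ± 0.18 (adjusted p = 0.00161), of which AB gave 1.69 ± 0.23 (adjusted p = 0.0304).

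Protein S (pros1), the cofactor of activated protein C, had 9.75, 10.03 and 8.56 in AB males, against 8.26, 8.19 and 8.47 in AB females. Its signals were 9.43, 10.50 and 8.40 in TU males, against 8.81, 8.43 and 8.74 in TU females, and 11.22, 11.06 and 10.20 in WIK males, against 9.10, 8.55 and 8.91 in WIK females. WIK males were clear of WIK females and had the highest group mean, with a difference of 1.97 ± 0.30 there (adjusted p = 0.0409) and 1.30 ± 0.27 over strains (adjusted p = 0.0107). Heparin cofactor II (serpind1) and the plasmin inhibitor serpinf2b differed by 0.55 ± 0.26 and 0.37 ± 0.23, neither called (adjusted p = 0.254 and 0.385). Protein C (proc) and plasminogen (plg), with adjusted p of 0.037 and 0.0301, differed by less than 2-fold, at 0.68 ± 0.18 and 0.82 ± 0.21.

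Of the coagulation factors proper only F7 was called among 11 members with a probe, and the median difference of this group was 0.19. F7 is the factor VII-like gene that the RefSeq table lists as f7l, and factor VII starts the extrinsic pathway together with tissue factor. It had 11.71, 12.06 and 12.18 in AB males, against 9.78, 9.80 and 10.21 in AB females. The values were 11.83, 13.70 and 12.12 in TU males, against 12.14, 12.23 and 12.55 in TU females, and 11.57, 11.77 and 11.59 in WIK males, against 10.86, 11.04 and 10.75 in WIK females. The sexes were far apart in AB, closer in WIK and overlapping in TU. The differences were 2.06 ± 0.18 in AB (adjusted p = 0.0104), 0.25 ± 0.52 in TU (adjusted p = 0.968) and 0.76 ± 0.11 in WIK (adjusted p = 0.0323, under 2-fold). The call over the mean of strains (1.02 ± 0.20, adjusted p = 0.00835) stood close to the 2-fold limit and was lost without any 1 of 7 fish: AB male 3, AB females 1 and 2, TU male 2, TU female 1, WIK male 2 and WIK female 3. It was also lost from the processed signal, from the authors' deposited table (0.66 ± 0.15) and with all probes averaged (0.68 ± 0.16), each under 2-fold. F7 was also the member with the smallest adjusted p for a sex difference that differed among strains, at 0.229.

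Prothrombin (f2), the precursor of thrombin, was not called. It had 15.63, 16.72 and 16.06 in AB males, against 15.07, 15.72 and 15.57 in AB females. It had 15.16, 16.76 and 16.09 in TU males, against 14.86, 15.40 and 16.54 in TU females, and 15.78, 16.59 and 16.05 in WIK males, against 15.13, 15.91 and 15.69 in WIK females. Male and female values overlapped in every strain, and the mean difference was 0.55 ± 0.27 (adjusted p = 0.26). Factor IX gene f9b had a mean difference of 0.90 ± 0.23 with adjusted p = 0.035 but was under 2-fold, with all TU males above all TU females, whereas its paralog f9a differed by 0.18 ± 0.30. The factor VII gene f7 and its relative f7i differed by 0.67 ± 0.23 and 0.97 ± 0.38 (adjusted p = 0.109 and 0.152). Factor X (f10) and kininogen (kng1) differed by 0.08 ± 0.35 and 0.19 ± 0.41. The tissue factor genes f3a and f3b were mostly not above background, on 3 and 6 of 18 arrays, and von Willebrand factor (vwf) was low but above it on 15, at log2 signals between 6.20 and 7.70.

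In the classical and lectin pathways all 6 measured members were higher in males over the mean of strains, and serping1 and c4 were called. C1 inhibitor (serping1), which blocks C1r, C1s and the kallikrein system, had 15.89, 16.13 and 14.91 in AB males, against 13.51, 13.70 and 13.35 in AB females. It had 15.65, 17.43 and 15.29 in TU males, against 14.96, 14.66 and 15.43 in TU females. In WIK the serping1 signals were 16.71, 16.68 and 15.64 in WIK males, against 15.43, 14.73 and 14.90 in WIK females. On this brightest probe the sexes were separate in AB and WIK and overlapped in TU. On a second probe AB male 3 lay below all AB females. The differences for the brightest probe were 2.12 ± 0.33 in AB (adjusted p = 0.0414), 1.11 ± 0.61 in TU and 1.32 ± 0.35 in WIK, and 1.52 ± 0.28 over strains (adjusted p = 0.00588).

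Complement c4, the substrate of C1s and of the lectin pathway protease, had 10.41, 11.52 and 10.12 in AB males, against 7.55, 8.32 and 7.39 in AB females. It had 8.94, 12.17 and 8.94 in TU males, against 10.29, 8.54 and 9.23 in TU females. In WIK it had 13.01, 12.08 and 11.43 in WIK males, against 11.44, 10.06 and 10.67 in WIK females. On this brightest probe AB males and females did not overlap, whereas on a second probe AB male 3 lay within the AB female range. The TU groups overlapped, with TU male 2 far above the other TU fish. In WIK the lowest male and the highest female were level. The difference was 2.93 ± 0.44 in AB (adjusted p = 0.0381) and 1.68 ± 0.45 over strains (adjusted p = 0.0388). The call for c4 over strains was lost without any 1 of 10 fish (AB males 1 and 2, all 3 AB females, TU female 2, WIK males 1 and 2 and WIK females 2 and 3). The probes for c4 were named only through the study's lists of transcripts called in these same fish, so its calls here are not an independent result. The C1 proteases c1r and c1s and the lectin pathway protease masp2 differed by 0.85 ± 0.32, 0.80 ± 0.38 and 0.68 ± 0.25 and were not called.

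The central component C3 was higher in males for 5 of 5 copies over the mean of strains, with 2 called. The copy c3a.1 had 16.25, 17.08 and 16.46 in AB males, against 15.08, 15.67 and 15.32 in AB females. It had 16.46, 17.89 and 17.12 in TU males, against 15.92, 15.48 and 17.26 in TU females, and 16.27, 17.23 and 16.60 in WIK males, against 15.17, 15.48 and 15.11 in WIK females. In AB and WIK the sexes were separate, and in TU female 3 lay within the male range. Its mean difference was 1.21 ± 0.25 (adjusted p = 0.0117), against 0.33 ± 0.28 from the scanner's processed signal (adjusted p = 0.43).

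The copy c3a.3 had 16.12, 17.25 and 16.21 in AB males, against 15.31, 15.62 and 15.16 in AB females. It had 16.26, 17.66 and 16.52 in TU males, against 15.84, 15.37 and 16.91 in TU females, and 16.67, 17.08 and 16.44 in WIK males, against 16.02, 15.32 and 15.18 in WIK females. Its pattern over fish resembled that of c3a.1, and its mean difference was 1.05 ± 0.25 (adjusted p = 0.0236). This call stood under only 1 of 6 other ways of processing and was lost without any 1 of 6 fish (AB male 2, TU male 2, TU females 1 and 2, WIK male 2 and WIK female 3). The copies c3a.2, c3b.1 and c3b.2 differed by 1.19 ± 0.38, 0.60 ± 0.24 and 0.45 ± 0.29 and were not called.

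In the alternative pathway factor B (cfb), the protease of the C3 convertase, was called, 1 of 4 measured members. It had 15.95, 16.95 and 16.08 in AB males, against 14.67, 15.06 and 15.20 in AB females. It had 15.72, 17.70 and 16.04 in TU males, against 15.10, 14.65 and 16.34 in TU females, and 16.51, 16.98 and 15.86 in WIK males, against 15.95, 15.00 and 15.22 in WIK females. Only in AB were the sexes separate, and the mean difference was 1.18 ± 0.30 (adjusted p = 0.0339). The call was lost without any 1 of 10 fish (AB male 2, AB females 1 and 2, TU male 2, TU females 1 and 2, WIK males 1 and 2 and WIK females 2 and 3). Factor D (cfd), which activates factor B, and properdin (cfp), which stabilises the convertase, differed by 0.42 ± 0.24 and 0.19 ± 0.24.

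Among terminal components 2 of 3 measured members were called. The gamma chain gene c8g had 9.46, 10.48 and 10.62 in AB males, against 7.96, 8.07 and 8.75 in AB females. It had 9.61, 11.59 and 9.59 in TU males, against 8.91, 8.58 and 9.12 in TU females. In WIK it had 10.54, 11.08 and 10.55 in WIK males, against 8.79, 8.63 and 9.06 in WIK females. In each of the 3 strains all males lay above all females, and c8g was the only member higher in the male of all 9 same-slide pairs. The mean difference was 1.74 ± 0.26 (adjusted p = 0.00169), the largest in size of the 13 called, and the call stood in all 6 other ways of processing that were run at the same fold and without any 1 of the 18 fish.

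The alpha chain gene c8a, its partner in the membrane pore, had 13.37, 13.92 and 13.56 in AB males, against 12.06, 12.27 and 12.37 in AB females. It had 13.44, 14.81 and 13.14 in TU males, against 12.76, 12.73 and 13.57 in TU females, and 14.21, 14.51 and 13.71 in WIK males, against 13.33, 12.92 and 13.11 in WIK females. TU female 3 lay within the TU male range, and the sexes were separate in AB and WIK. The mean difference was 1.06 ± 0.21 (adjusted p = 0.00847), and the call was lost without TU male 2 or without WIK male 2. The terminal component c6 differed by 0.54 ± 0.37 and was not called.

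The male and female of the same strain and number were on 1 slide, which gives a comparison within slide and scan day. In AB the male was higher for 36, 35 and 28 of 38 members in pairs 1, 2 and 3, and in WIK for 33, 36 and 35. Over the 19689 genes above background the shares were 51.6%, 52.2% and 51.2% in AB and 56.2%, 57.4% and 53.2% in WIK. The TU pairs disagreed: the male was higher for 23 members in pair 1 and 37 in pair 2, and for only 4 in pair 3, the pair that holds TU female 3. Over the genes above background the TU shares were 47.7%, 54.2% and 41.6% in the same order. Over the 9 pairs 13 members were higher in the male in 8 pairs, another 13 in 7 pairs, and vwf in 4.

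A few fish carried much of the spread. TU male 2 held the highest signal of all 18 fish for 21 of 38 members, with a median of 0.91 above the median male. Without this fish 19 of 38 members were higher in TU males, at a median of -0.02. TU female 3 was the highest of its group for 28 members, with a median of 0.61 above the median female, and without it 35 of 38 members were higher in TU males at a median of 0.53. AB male 3 was low for kng1, at 10.34 against 13.57 and 14.35 in the other AB males, and for f9a, at 10.72 against 12.67 and 13.25, but high for serpind1, at 14.89 against 12.60 and 13.39.

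**Figure D3:**
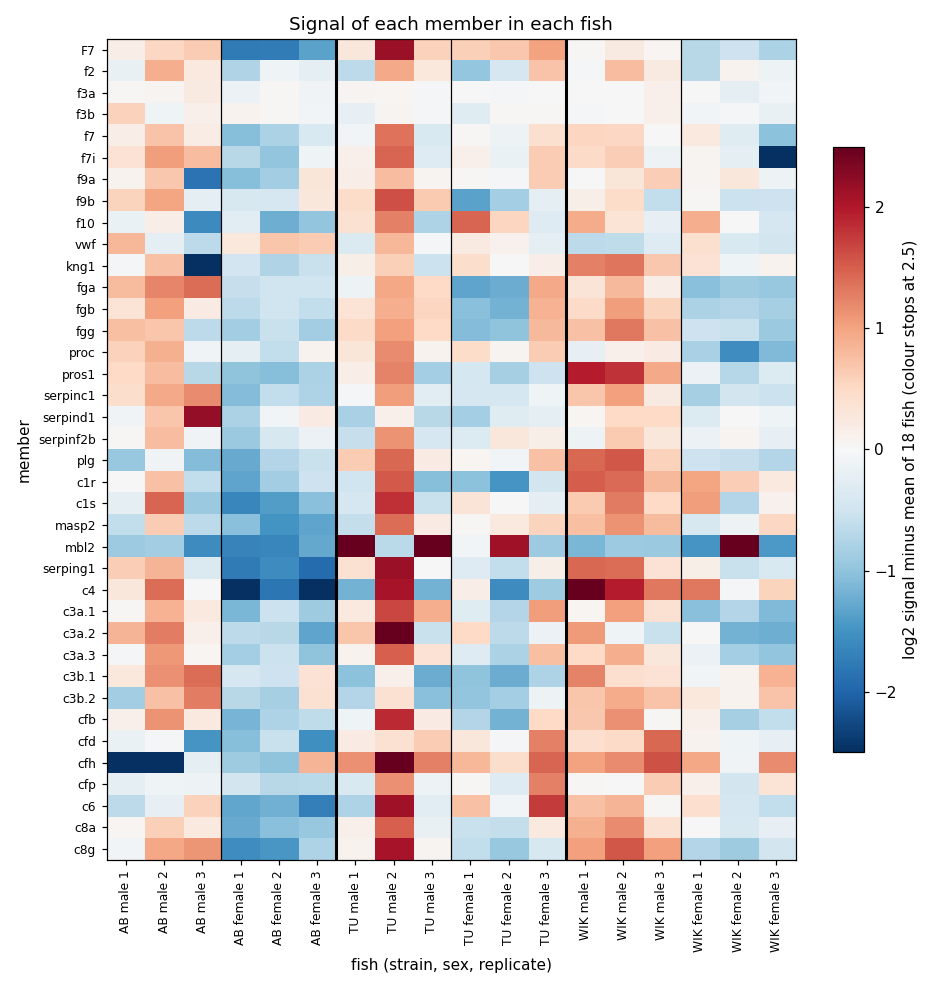
Log2 signal of the 38 members in each of the 18 fish minus the member's mean over all fish, with colours stopping at 2.5 in either direction and thick lines between strains. TU male 2 is the highest fish for 21 members.

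Whether the sex difference itself differed among strains was tested over all 18 arrays. No member was called by limma, where 0.478% of all genes were (0.686% of those above background). An unadjusted p under 0.05 was found for 3 members. The share of all genes at that cutoff is not given here, so this count is not read as a result. Without TU male 2, F7 was called, at adjusted p = 0.000501, and without AB male 3, cfh was called, at adjusted p = 0.00652. The AB males left in that cfh fit, at 5.92 and 6.02, were not well above background, so it takes background as their signal. The share of all genes called without TU male 2 or without AB male 3 was not counted.

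Strain differences were of mixed direction. Over the mean of the sexes 9 members were called among strains (F7, proc, plg, c1r, masp2, c4, c3b.1, cfd and cfh), or 9 of 38 where 7.56% of all genes were called and 10.8% of those above background. AB was the lower strain for 28 of 38 members against TU (median -0.38) and for 27 of 38 against WIK (median -0.34), against medians of 0.02 and 0.00 over the genes above background. The hepatocyte markers moved alike, with AB lower for 13 of 15 against TU (median -0.40) and for 13 of 15 against WIK (median -0.41), and their part was not tested. In females 6 members were called (F7, proc, c1r, masp2, serping1 and c4), where 4.9% of all genes were called and 7.02% of those above background. In males none was called by limma, where 3.74% of all genes were called and 5.36% of those above background. An unadjusted p under 0.05 was found in males for 5 of 38 members, against 6319 of 28239 genes and 6175 of 19689 above background. Leaving out TU male 2 gave 4 calls among males, plg, mbl2, c4 and c3b.1, and leaving out AB male 3 gave 1, cfh. That cfh call rests on AB males that were not well above background. In females the count fell to 2 without AB female 1 or AB female 2 and to 3 without WIK female 3. With arrays scaled by the median in place of quantile normalization, 0 of the 6 calls among females and 3 calls over the mean of sexes were left. The share of all genes called was not counted for these refits. Their counts thus cannot be read as a result about the members.

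The F7 signal was lowest in AB females, as listed above, and AB females lay below TU females by 2.38 ± 0.16 and below WIK females by 0.96 ± 0.16 (adjusted p = 0.000937). Over the mean of sexes AB minus TU was -1.47 ± 0.25 and TU minus WIK was 1.16 ± 0.25 (adjusted p = 0.00174). Within scan days and sex AB was below TU in 5 of 6 pairs and TU above WIK in 4 of 4. Since the study itself names F7 as different between strains in these females, this call may not be an independent result.

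Plasminogen (plg), the precursor of plasmin, had 14.06, 14.92 and 13.93 in AB males, against 13.75, 14.28 and 14.45 in AB females. It had 15.65, 16.45 and 15.22 in TU males, against 15.06, 14.95 and 15.74 in TU females, and 16.46, 16.56 and 15.59 in WIK males, against 14.49, 14.43 and 14.29 in WIK females. On this brightest probe AB fish were the low group in both sexes, except that WIK females overlapped with them. On it AB was below TU in 6 of 6 pairs within a scan day. The mean differences were -1.28 ± 0.25 for AB minus TU and -1.07 ± 0.25 for AB minus WIK (adjusted p = 0.00495). Averaging the plg probes ended this call. On the second plg probe AB overlapped with TU in both sexes. There AB males, at 12.07, 12.94 and 12.78, lay above WIK males, at 9.54, 9.62 and 10.47. The low place of AB thus rests on 1 of 2 probes that disagree. On the brightest probe WIK males stood clear of WIK females by 1.80 ± 0.27 (adjusted p = 0.0375), against 0.14 ± 0.32 in AB and 0.52 ± 0.38 in TU.

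Protein C (proc), the protease that inactivates factors V and VIII, had 11.86, 12.16 and 11.18 in AB males, against 11.04, 10.67 and 11.36 in AB females. It had 11.58, 12.46 and 11.36 in TU males, against 11.74, 11.34 and 11.91 in TU females, and 11.08, 11.40 and 11.49 in WIK males, against 10.46, 9.72 and 10.18 in WIK females. WIK females were below every TU and AB female. In females TU minus WIK was 1.54 ± 0.25 and AB minus WIK 0.90 ± 0.25 (adjusted p = 0.0256), and TU lay above WIK in 4 of 4 pairs within a scan day.

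The C1 protease gene c1r had 11.65, 12.37 and 11.02 in AB males, against 10.31, 10.77 and 11.12 in AB females. It had 11.13, 13.16 and 10.56 in TU males, against 10.61, 10.15 and 11.18 in TU females, and 13.14, 13.05 and 12.45 in WIK males, against 12.61, 12.24 and 11.88 in WIK females. WIK was the high strain, with all WIK females above all AB and TU females, and all WIK males above all AB and TU males except TU male 2, the highest. Over the mean of sexes AB minus WIK was -1.36 ± 0.39 and TU minus WIK -1.43 ± 0.39 (adjusted p = 0.0257). With scan day as a block the c1r call over the mean of sexes was lost (adjusted p = 0.0726). Like proc and c3b.1, c1r had a single probe.

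Complement c4 was also highest in WIK, at AB minus WIK of -2.23 ± 0.55 and TU minus WIK of -1.77 ± 0.55 (adjusted p = 0.022). With scan day as a block the c4 calls were lost, over the mean of sexes (adjusted p = 0.0939) and in females (adjusted p = 0.105). The lectin pathway protease masp2 had 10.28, 11.53 and 10.24 in AB males, against 9.86, 9.41 and 9.59 in AB females. It had 10.30, 12.30 and 11.11 in TU males, against 10.93, 11.14 and 11.45 in TU females, and 11.66, 12.03 and 11.70 in WIK males, against 10.51, 10.77 and 11.42 in WIK females. AB females were below all TU and WIK females, and over the mean of sexes AB minus TU was -1.05 ± 0.31 and AB minus WIK -1.20 ± 0.31 (adjusted p = 0.0236). For serping1 the call among females rested on AB females below both TU females, by 1.50 ± 0.24, and WIK females, by 1.50 ± 0.24 (adjusted p = 0.0142), and it was lost with scan day as a block (adjusted p = 0.0554).

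Mannose-binding lectin (mbl2), which recognises microbial sugars, was high in a few fish and was not called in any comparison of all fish. It had 6.80, 6.83 and 6.14 in AB males, against 6.04, 6.07 and 6.42 in AB females. It had 13.55, 7.04 and 12.50 in TU males, against 7.63, 9.82 and 6.79 in TU females, and 6.56, 6.79 and 6.78 in WIK males, against 6.23, 10.48 and 6.27 in WIK females. TU male 1, TU male 3, WIK female 2 and TU female 2 stood high, and the other 14 fish lay between 6.04 and 7.63. The summed signal of 8 intestine genes (log2) was also highest in 3 of these fish, at 17.86 in TU male 1, 16.58 in TU male 3 and 13.94 in WIK female 2, with 13.26 in TU female 2 and 9.49 to 13.79 in the other 14, and its part in the mbl2 signal was not tested. A further mbl2 probe gave the same 4 fish as its highest, at 12.62, 11.97, 9.81 and 9.13. The mean strain test was not called (adjusted p = 0.0851).

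The C3 copy c3b.1 had 9.11, 9.99 and 10.26 in AB males, against 8.44, 8.34 and 9.21 in AB females. It had 7.83, 8.99 and 7.61 in TU males, against 7.85, 7.62 and 8.08 in TU females, and 10.10, 9.28 and 9.22 in WIK males, against 8.78, 8.94 and 9.72 in WIK females. TU was the low strain, with AB minus TU of 1.23 ± 0.29 and TU minus WIK of -1.34 ± 0.29 (adjusted p = 0.00699), and AB above TU in 6 of 6 pairs within a scan day. Factor D (cfd) had 12.20, 12.33 and 10.89 in AB males, against 11.29, 11.80 and 10.83 in AB females. It had 12.56, 12.73 and 12.99 in TU males, against 12.65, 12.32 and 13.62 in TU females, and 12.78, 12.83 and 13.79 in WIK males, against 12.44, 12.25 and 12.16 in WIK females. AB was low, with AB minus TU of -1.26 ± 0.29 and AB minus WIK of -1.15 ± 0.29 (adjusted p = 0.0114).

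Factor H (cfh), the main plasma inhibitor of the alternative pathway, had the widest spread over the 18 fish of the members measured. It had 5.92, 6.02 and 12.45 in AB males, against 11.78, 11.67 and 13.52 in AB females. It had 13.82, 16.41 and 13.93 in TU males, against 13.51, 13.12 and 14.14 in TU females, and 13.69, 13.86 and 14.26 in WIK males, against 13.65, 12.59 and 13.85 in WIK females. AB males 1 and 2 were not well above background while AB male 3 was at 12.45, and all other fish measured 11.67 or more. The means differed by -3.93 ± 0.94 for AB minus TU and -3.42 ± 0.94 for AB minus WIK (adjusted p = 0.0155). These values take the background level of AB males 1 and 2 as their signal, so only 1 of 3 AB males was measured. Among females, all measured, AB minus TU was -1.27 ± 0.56 and AB minus WIK -1.04 ± 0.56, not called (adjusted p = 0.402), and the AB male minus female difference of -4.19 ± 1.91 was not called (adjusted p = 0.345). The gene had a single probe.

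**Figure D4:**
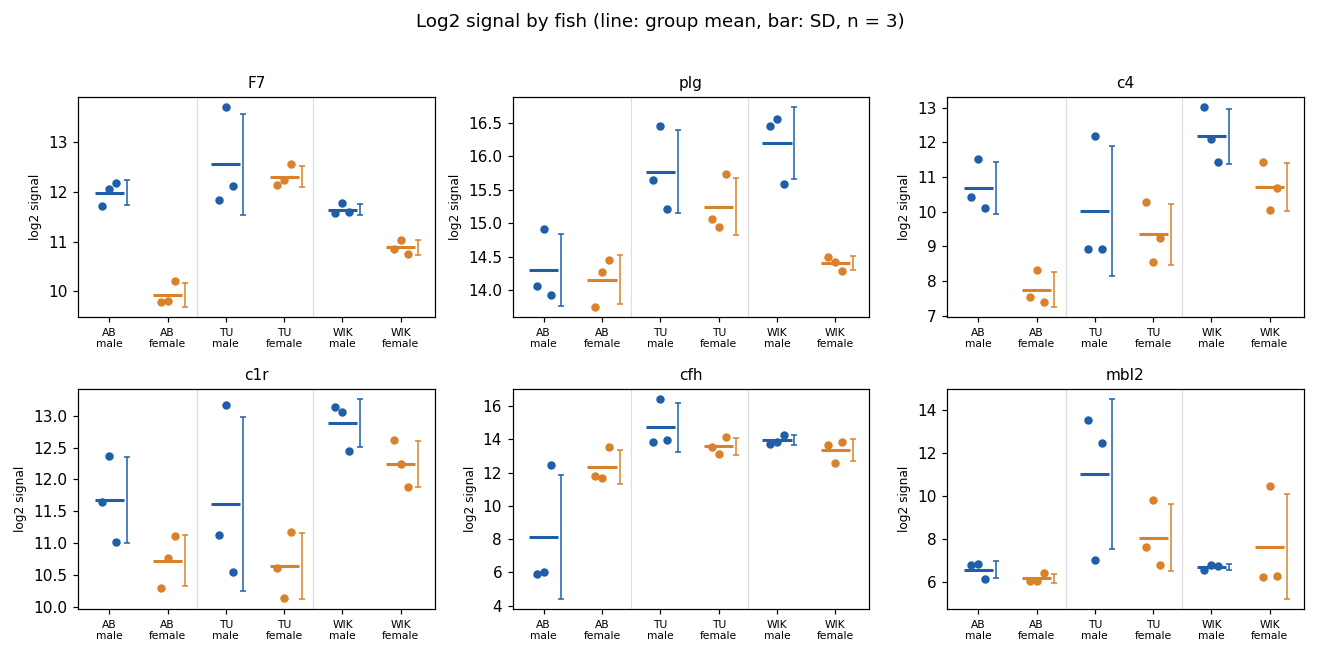
Log2 signal of F7, plg, c4, c1r, cfh and mbl2 in each of the 18 fish, males left of females within a strain, with the group mean as a line and the SD (n = 3) as a bar. AB females are lowest for F7 and c4, and AB males 1 and 2 are at background for cfh. The mbl2 signal is high in TU males 1 and 3, TU female 2 and WIK female 2.

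The probes of 1 gene disagreed for F7, plg and c3a.3, and in AB male 3 also for serping1, c4 and fgg. The second serping1 probe had AB male 3 at 11.35, below the AB females at 12.37 to 12.76. The second c4 probe had this fish at 6.51, within the AB female range of 6.33 to 6.62. The third fgg probe had it at 13.17, against 15.14 to 15.21 in AB females. The brightest probes of F7 followed the pattern above, whereas the dimmest of its 3 probes measured 7.11 to 7.63 in AB, 9.09 to 10.06 in TU and 10.26 to 11.13 in WIK, in an order the first probe did not show (AB minus WIK of -3.39 ± 0.17, against -0.31 ± 0.25 for the brightest). For plg the second probe was lower in WIK males, at 9.54, 9.62 and 10.47 against 11.72, 11.14 and 11.36 in WIK females, a male minus female difference of -1.53 ± 0.29 (adjusted p = 0.071) beside 1.80 ± 0.27 for the brightest. For c3a.3 the dimmest of 3 probes measured 5.96 to 6.37 in all 6 WIK fish and 8.53 to 12.92 in AB and TU, while both brighter probes overlapped between WIK and the other strains. With all probes of a gene averaged the plg difference in WIK was 0.13 ± 0.10 and no longer called (adjusted p = 0.642). Averaging also ended the AB calls for serpinc1, serping1 and c4 and the c4 call between the sexes over strains. The called members proc, c1r, c3b.1, cfh, c8a and c8g had a single probe each. For these no second probe could be set beside the result.

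**Figure D5:**
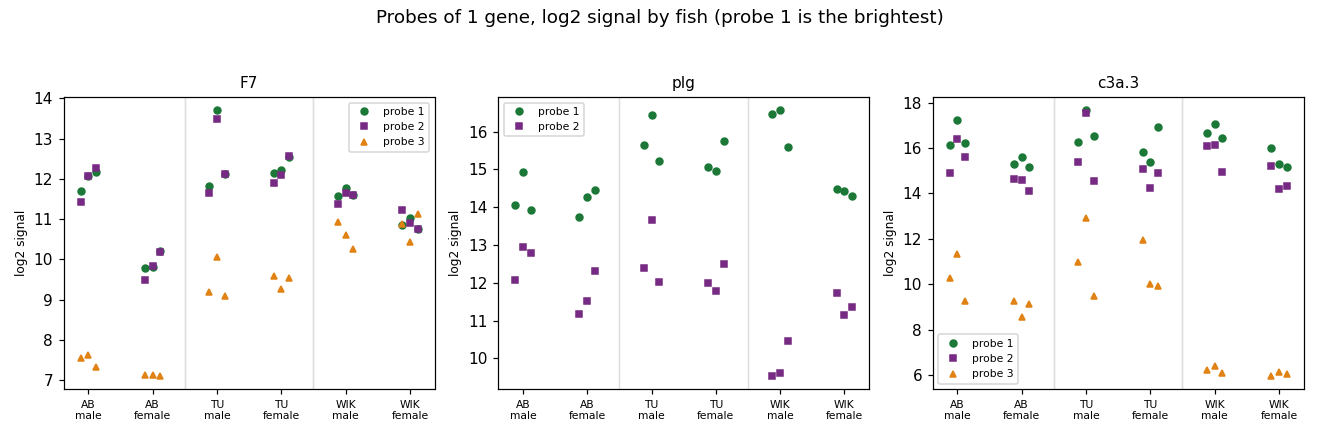
Log2 signal of each probe of F7, plg and c3a.3 in the 18 fish, with probe 1 the brightest of its gene. F7 probe 3 steps up from AB over TU to WIK, plg probe 2 is lowest in WIK males, and c3a.3 probe 3 is lowest in WIK, at 5.96 to 6.37.

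Of 26 further genes of these pathways with a probe, 3 were called between the sexes over the mean of strains. In that comparison 2.05% of all genes were called, and 2.94% of those above background. The protein Z-dependent inhibitor serpina10a was higher in males by 1.11 ± 0.21 (adjusted p = 0.00557). The fibrinogen-like gene fgl1 and mcfd2, a cofactor that helps carry factors V and VIII out of the endoplasmic reticulum, were lower in males, by 1.38 ± 0.16 (adjusted p = 0.000256) and 1.90 ± 0.16 (adjusted p = 3.43e-05). The fgl1 signal was near the array floor in all males, at 6.05 to 6.42. The median of the 26 was 0.11, with 17 higher in males.

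Among strains 8 of the 26 were called, where over the mean of sexes 7.56% of all genes were called and 10.8% of those above background. The complement regulator gene rca2.1 was highest in TU, at 11.79, 11.09 and 11.31 in TU males and 10.06, 10.23 and 10.84 in TU females, against 8.41, 9.23 and 9.08 in AB males and 8.13, 8.38 and 8.88 in AB females, and TU minus WIK was 1.80 ± 0.18 (adjusted p = 5.82e-06). The factor H-like gene cfhl1 was near background in WIK males 1 and 2 (7.11 and 7.15) and WIK females 1 and 2 (6.95 and 6.57), while WIK male 3 and female 3 measured 11.88 and 11.35. Its relative cfhl2 had 6.20 to 6.65 in the former fish, against 14.00 and 13.73 in WIK male 3 and female 3. WIK male 2 and female 2 shared their slide and scan day with TU male 2 and female 2. In those TU fish cfhl1 measured 14.44 and 12.18, and cfhl2 15.08 and 12.46. WIK male 3 and female 3 were the only arrays of their slide and scan day. In their difference from the other WIK fish, fish and slide cannot be told apart. The C1q chain gene c1qc and clusterin (clu), an inhibitor of the membrane pore, were lower in AB than in TU by 1.35 ± 0.32 and 1.60 ± 0.32. Genes of the vitamin K cycle and the hepatocyte transcription factors on the lists had no call between the sexes (0 of 6 and 0 of 8) over the mean of strains. In that comparison 1 of 14 acute-phase genes was called, hamp (hepcidin), higher in males by 2.92 ± 0.70 (adjusted p = 0.0228), and within WIK the ceruloplasmin gene cp was called, higher in males. The acute-phase summed signal was 17.41 to 17.94 in AB males against 16.19 to 16.76 in AB females. In WIK it was 17.55 to 18.09 against 16.52 to 16.76, and in TU the sexes overlapped. TU male 2 had the highest acute-phase sum (18.40) and leukocyte sum (12.59) of all fish. The part of these in the sex difference was not tested.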

How the data were processed

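Livers of 18 fish were measured on Agilent one-colour arrays. Per the file headers, the deposited intensity values were extracted from the scans by the authors without normalization between arrays. A deposited log2 table, background-subtracted, normalized and averaged per accession by the authors in limma (version not given in the sources used here), served as an alternative.

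Median spot and local background intensities were corrected with normexp (offset 50) and quantile normalized in limma 3.58.1 (R 4.3.3). Outlier spots were left out, control spots removed after correction, and spots of 1 probe averaged, giving 43603 probes. Probes were named through the RefSeq gene table (26043) or the study's lists (272), or 60.4% of probes. The brightest probe by mean signal stood for a gene.

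Sex was tested within each strain on 6 arrays and strain within each sex on 9 arrays by an F test. The means over strains or sexes and the interaction came from 1 fit of 18 arrays. Calls needed a limma adjusted p (Benjamini-Hochberg, over all probes) of at most 0.05 and at least 2-fold. Replicates were individual fish, and 3 per group limits the precision. The methods were tested on simulated data.

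Members called in any comparison, with f2, fga, fgb, fgg, plg, serpinc1, c3a.1, cfb, c9 and mbl2, were the ones to be given fish by fish, and from the other pathway genes up to 6 called ones by smallest adjusted p. The members and lists were chosen with earlier results of these data known.

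Same-numbered males and females of a strain shared a slide. Their deviations from the group means, over 43487 probes, correlated at 0.25, 0.01 and -0.07 in AB, 0.09, -0.02 and 0.37 in TU, and 0.20, 0.13 and 0.12 in WIK, so that the numbers paired the samples in WIK. Scans fell on 4 days. Alternatives covered the scaling, the deposited table, the filter, the fold, probe averaging, blocks for replicate, day and slide, and leaving out each fish.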

Additional observations from a re-analysis of the deposited data

Results flagged for a closer look

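The sex difference of 2 further pathway genes differed among strains by a limma test over all 18 arrays. For mcfd2, a cofactor of factor V and VIII secretion, the adjusted p was 0.0146. Its signals were 10.73, 10.87 and 10.80 in AB males against 13.93, 13.57 and 13.82 in AB females, 10.56, 11.46 and 11.30 in TU males against 11.00, 11.41 and 11.94 in TU females, and 10.76, 10.86 and 10.99 in WIK males against 13.18, 12.79 and 13.79 in WIK females. Males lay below females without overlap in AB and WIK, and the groups overlapped in TU.

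For fgl1, a fibrinogen-like protein secreted by the liver, the adjusted p was 0.0251. Its signals were 6.23, 6.42 and 6.20 in AB males against 8.88, 8.70 and 9.45 in AB females, 6.15, 6.10 and 6.18 in TU males against 7.42, 7.97 and 6.48 in TU females, and 6.22, 6.23 and 6.05 in WIK males against 6.51, 6.35 and 6.41 in WIK females. All males and WIK females thus lay between 6.05 and 6.51. The lowest signal of a probe above background was 5.65 to 6.09 on these arrays, so fgl1 was near the floor in those groups. The male minus female difference in AB was lower than in TU by 1.58 ± 0.39 and lower than in WIK by 2.47 ± 0.39. Since TU female 3 lay near the male fgl1 level, both tests were also run without it, a choice made after seeing the data. The adjusted p was then 0.00652 for mcfd2 and 0.00165 for fgl1, whose difference in AB was lower than in TU by 1.17 ± 0.26.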

How the results depend on the processing

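The counts of members called between sexes over the mean of strains were 13, against 3 from the scanner's processed signal, 20 with median scaling and 0 at 4-fold. Of all genes 2.05% were called in that comparison, against 7.54% from the processed signal and 4.42% with median scaling. In AB 6 members were called (where 2.07% of all genes were), against 2 from the processed signal (1.92%), 3 at 4-fold and 2 with the replicate block. In WIK 6 were called (where 1.25% of all genes were), against 0 from the processed signal (0.613%) and 0 with median scaling (0.0956%). The WIK count was also 0 at 4-fold and with the replicate block, and 1 in the fit of all 18 arrays. TU gave 0 and the interaction 0 under each of these. Among strains in males, 0 became 1 with only probes well above background, 1 with the replicate block, 1 with scan day as a block and 3 in the fit of all 18 arrays. In females 6 became 3 from the processed signal, 0 with median scaling, 2 at 4-fold and 2 in the fit of all 18 arrays. Over the mean of sexes 9 became 3 with median scaling and 2 at 4-fold. Leaving out 1 fish gave 0 to 10 calls in AB, 0 in TU, 0 to 10 in WIK, 0 to 4 among male strains, 2 to 8 among female strains, 8 to 14 for sex over strains, 6 to 12 for strain over sexes and 0 to 1 for the interaction. Of all genes, 0.425% to 2.65% were then called in AB, 0.152% to 1.99% in WIK and 1.5% to 3.21% for sex over strains. No share of all genes was counted for the replicate block, the 4-fold cutoff or the fit of all 18 arrays. None was counted for the alternatives to the strain and interaction fits either. The counts from all of these thus cannot be set against the whole array. For single called members, 403 fits without 1 fish kept the call and 119 lost it, while 183 other alternatives kept it and 96 lost it. None turned the direction of the member's largest contrast in that comparison. The direction of its other contrasts was not checked. The numbers did not pair the samples in AB or in TU. Across strains within a sex the correlations by number were mixed. In females they were 0.25, 0.19 and 0.13 for AB with TU, 0.22, 0 and 0.15 for AB with WIK, and 0.28, 0.22 and 0.18 for TU with WIK. In males they were 0.08, -0.03 and -0.05 for AB with TU, 0.15, 0 and -0.06 for AB with WIK, and 0.2, 0.14 and 0.25 for TU with WIK. In all of these the block is given for its counts only. Median scaling moved the all-gene median of the mean sex difference to 0.20. Signal over background limits f3a and f3b, above background on 3 and 6 arrays. The cause of these shifts was not tested.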
